A study of Mus musculus with 10 samples.

Results

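Antibody genes were followed in mouse kidneys through a set of 10 listed genes of the B lineage and of antibody transport. The set holds the heavy chain constant genes Ighg2c, Ighg2b, Igha and Ighm, the kappa light chain constant gene Igkc, Jchain, Mzb1, Cd79a, Cd79b and the transport receptor Pigr. Of these, 7 were among the 13837 genes with values, and the remaining 3 (Mzb1, Cd79a and Cd79b) were not analysed here. All 7 passed the filter on low values that left 13197 genes to be tested. The members were selected on measured values, namely their differences between genotypes in these same kidneys, so their differences are described below without a test.

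RNA was measured in whole kidneys of 3-month-old mice, 5 of genotype Rragc +/+ and 5 of genotype Rragc S74N/+, with 1 library per mouse. Rragc encodes RagC, a small GTPase that passes nutrient signals to the kinase complex mTORC1, and S74N is an activating change of serine to asparagine at position 74, placed in the endogenous gene by Cas9 editing of embryos on a C57BL/6 background. Heterozygous mice carry the change in every cell of the body from conception, so the kidney and the blood cells inside it are mutant alike, and an effect of one cannot be told apart from an effect of the other. The labels name no treatment, and homozygous S74N mice are not viable. The labels give no sex, and Y-linked transcripts (Ddx3y, 317 to 478 normalized counts) were present in all 10 kidneys. The sources used here name no perfusion of the kidneys, and cells and RNA of the blood inside them were not separated from the tissue.

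Antibodies are made of paired heavy and light chains, and the constant gene of the heavy chain sets the class: Ighm for IgM, Igha for IgA, and Ighg2b and Ighg2c for the IgG2b and IgG2c subclasses. A B cell displays antibody on its surface together with Cd79a and Cd79b, whereas a plasma cell secretes it and fills with immunoglobulin mRNA, so that few plasma cells can supply most of the immunoglobulin RNA of a tissue. The J chain, encoded by Jchain, joins IgA or IgM units into polymers. Pigr, made by epithelial cells and not by B cells, carries these polymers across the epithelium into secretions such as urine.

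The heavy chain genes lie on chromosome 12, Igkc on chromosome 6, Jchain on chromosome 5 and Pigr on chromosome 1 (GRCm38). The ends of the coding sequences of the secreted forms of the 4 heavy chain genes are shown because they carry the 2 points on which the counts turn, namely which chains J chain can join and how far the IgG genes can be told apart by sequence. The sequences are from GENCODE vM21 transcripts of GRCm38, read 5′ to 3′ up to the last codon before the stop. Capitals mark the positions at which Ighg2c and Ighg2b differ, and the Igha and Ighm ends have no marked bases.

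Ighg2c: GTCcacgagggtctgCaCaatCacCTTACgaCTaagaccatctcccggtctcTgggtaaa

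Ighg2b: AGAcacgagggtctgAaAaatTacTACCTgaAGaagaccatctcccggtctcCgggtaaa

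Igha: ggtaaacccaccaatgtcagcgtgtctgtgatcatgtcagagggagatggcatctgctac

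Ighm: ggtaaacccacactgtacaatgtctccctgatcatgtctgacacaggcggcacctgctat

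The Igha and Ighm ends encode the tailpiece with the cysteine to which J chain is bound, and the IgG chains end without it. Over these last 60 coding bases, Ighg2c and Ighg2b shared 46 bases. Over the last 300 bases of the transcripts, where reads of a 3′ library fall, they shared 247 bases (82.3%), and their longest identical run there was 44 bases. The authors aligned with 3 mismatches and up to 20 positions per read allowed, so some reads of either gene may have been given to the other, and the split between Ighg2b and Ighg2c is less certain than their sum.

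Libraries of +/+ mice held 6501552 to 7856363 reads on genes and those of S74N/+ mice 6872310 to 7996087. Values are normalized counts, which are reads divided by a size factor of the library. In a 3′ library reads come from the end of a transcript whatever its length, so levels of different genes can be set side by side. Rragc itself was at 244 to 347 normalized counts in +/+ and at 189 to 248 in S74N/+ kidneys, which did not pass the test (log2 difference -0.40, SE 0.12, limma adjusted p = 0.0678). A 3′ count does not read the edited codon and cannot check the genotype. Between genotypes, limma on log2(normalized count + 1) called 487 of 13197 genes at an adjusted p under 0.05, or 3.69%, of which 220 were higher in S74N/+ kidneys (1.67%).

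The IgG genes with values, Ighg2c and Ighg2b, stood higher in every S74N/+ kidney than in any +/+ kidney. Ighg2c was at 27.4, 8.00, 35.2, 32.2 and 25.6 normalized counts in +/+ replicates 1 to 5 and at 194, 87.3, 118, 328 and 1094 in S74N/+ replicates 1 to 5. The groups did not overlap, and the lowest +/+ value rests on 9 reads. The log2 difference was 3.29 (SE 0.51), with means of 25.7 ± 10.6 and 364 ± 418 normalized counts (SD, n = 5 each). Ighg2b was at 91.3, 49.8, 141, 111 and 117 normalized counts in +/+ and at 792, 395, 242, 447 and 1978 in S74N/+ kidneys. These groups did not overlap either, and the log2 difference was 2.58 (SE 0.40). In S74N/+ kidneys the order of the mice was not the same for both genes, since Ighg2b was lowest in replicate 3 and Ighg2c in replicate 2. Bulk RNA cannot tell more antibody-secreting cells from more immunoglobulin RNA per cell.

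**Figure D1:**
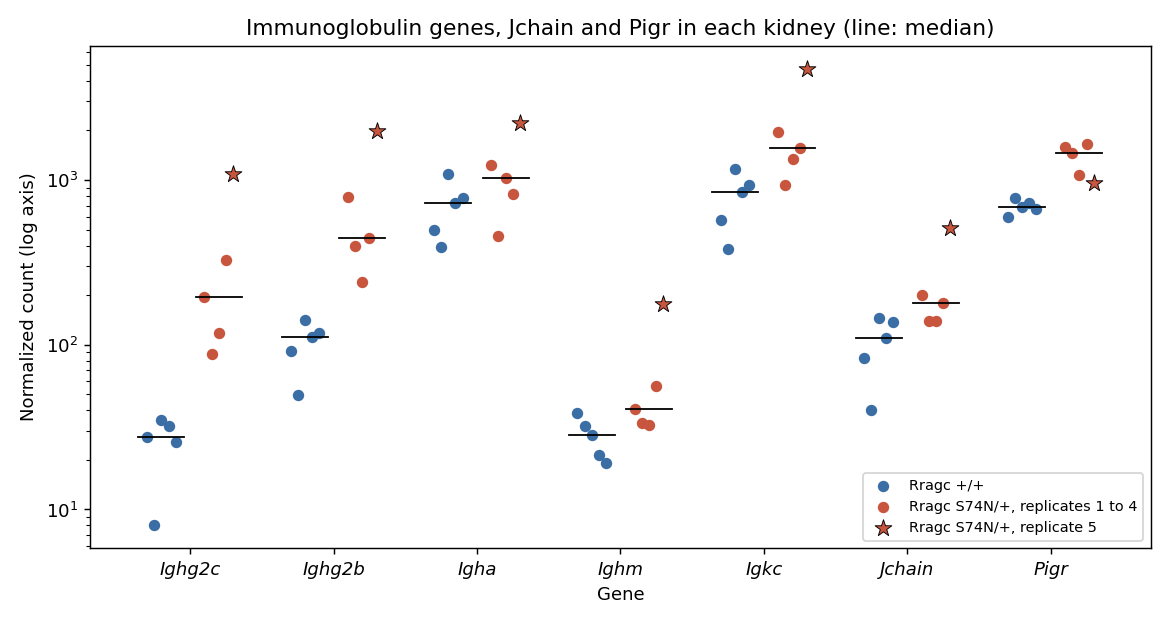
Normalized counts (log axis) of the 7 genes in each kidney, with Rragc +/+ mice in blue, Rragc S74N/+ mice in red, S74N/+ replicate 5 as a star, and the median of each genotype as a line. The Ighg2c and Ighg2b groups are apart, Igha and Ighm overlap, and replicate 5 is the highest S74N/+ mouse for 6 genes and the lowest for Pigr.

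IgA, the class of mucosal surfaces, was the most abundant of the heavy chains with values in +/+ kidneys and had the smallest log2 difference of the members. Igha was at 496, 392, 1082, 720 and 776 normalized counts in +/+ and at 1240, 454.4, 1027, 818 and 2204 in S74N/+ kidneys. The groups overlapped widely, with S74N/+ replicate 2 below 4 of the 5 +/+ mice. The log2 difference was 0.63 (SE 0.31), and it was 0.35 without S74N/+ replicate 5. IgM, the first class a B cell makes, was rare in both genotypes, near the level of Ighg2c in +/+ kidneys and the lowest of the 4 genes in each S74N/+ kidney. Ighm was at 38.3, 32.0, 28.4, 21.4 and 19.2 normalized counts in +/+ and at 40.8, 33.4, 32.6, 56.3 and 177 in S74N/+ kidneys. All S74N/+ kidneys except replicate 5 were within 1.99 times the +/+ median, and the log2 difference of 0.97 (SE 0.36) fell to 0.54 without that mouse. The library codes fall into 2 runs of neighbouring numbers, the first with +/+ replicates 1 and 2 and S74N/+ replicate 1, and the second with the other 7 mice. The 2 highest +/+ values of Ighm belonged to the first run. Within the second run the Ighm groups did not overlap and the log2 difference was 1.31, while that of Igha was 0.18. The part of the code run in these values was not tested.

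The mix of heavy chain classes fell into separate ranges in the genotypes, whereas their sum overlapped. Heavy chain counts here are the sum of Ighg2b, Ighg2c, Igha and Ighm. The other heavy chain constant genes Ighg1, Ighg3, Ighd and Ighe were not analysed here, so no part is one of all heavy chain RNA. IgG2b and IgG2c together made up 18.2%, 12.0%, 13.7%, 16.2% and 15.2% of the heavy chain counts in +/+ replicates 1 to 5, and 43.5%, 49.7%, 25.3%, 47.0% and 56.3% in S74N/+ replicates 1 to 5. The highest +/+ and the lowest S74N/+ mouse were 18.2% and 25.3%, so the groups did not overlap. The 95% Clopper-Pearson intervals reached at most 3.08 percentage points from each value, and they cover counting error only. The means were 15.1% ± 2.37 and 44.4% ± 11.6 (SD, n = 5 each), a difference of 29.3 percentage points. It was 26.3 without S74N/+ replicate 5 and 34.1 without S74N/+ replicate 3, the widest shifts when any single mouse was left out. IgA took the counterpart, from 75.9% to 84.1% in +/+ and from 40.4% to 72.4% in S74N/+ kidneys, without overlap. IgM stayed a small part in both, at 2.05% to 6.64% and at 1.80% to 3.45%. These parts derive from the same values that chose the genes and are a description of them.

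**Figure D2:**
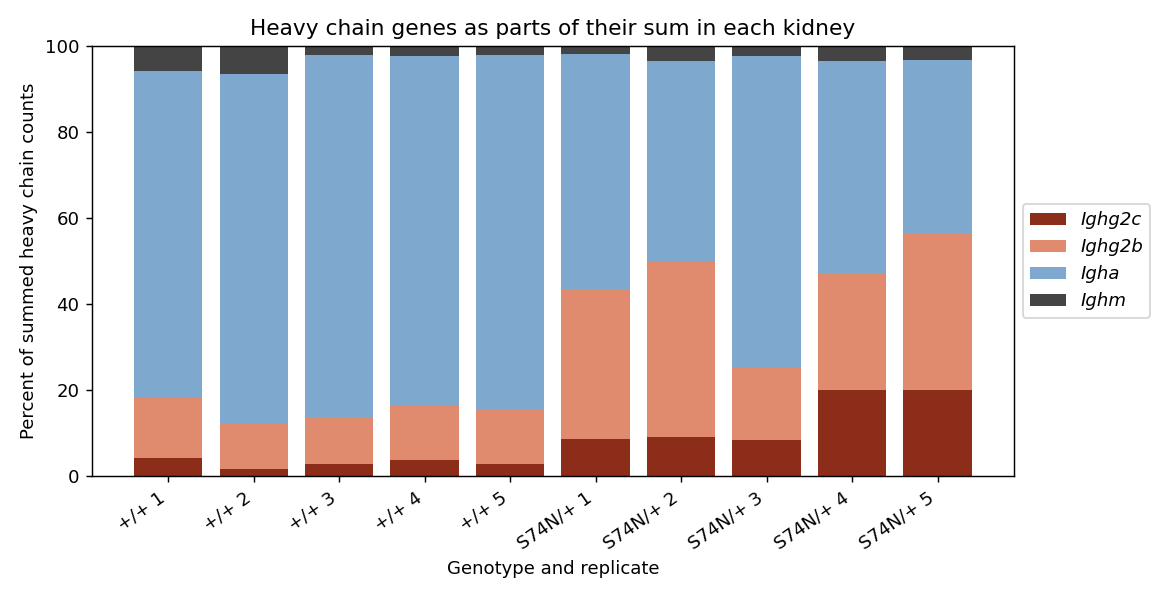
Counts of Ighg2c, Ighg2b, Igha and Ighm as percent of their sum in each kidney, 1 bar per mouse. The IgG parts (dark and light red) reach 12.0% to 18.2% in Rragc +/+ and 25.3% to 56.3% in Rragc S74N/+ kidneys, and Igha (blue) takes most of the remainder.

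Within IgG, the balance of the subclasses varied from mouse to mouse. Ighg2b exceeded Ighg2c by 3.33 to 6.22 times in +/+ kidneys and by 1.36 to 4.52 times in S74N/+ kidneys, so the ranges overlapped. S74N/+ replicates 1 and 2, at 4.07 and 4.52 times, resembled +/+ mice, while replicates 3, 4 and 5 were at 2.05, 1.36 and 1.81 times. Because reads may be shared between these genes, this ratio is the least certain of the values.

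The light chain gene Igkc, whose product pairs with heavy chains of every class, was at 572, 379, 1173, 850 and 934 normalized counts in +/+ and at 1960, 936, 1342, 1562 and 4734 in S74N/+ kidneys. All S74N/+ kidneys lay above the +/+ median of 850, but S74N/+ replicate 2 was below +/+ replicate 3. The log2 difference was 1.30 (SE 0.34). The gene was past the threshold with all 10 mice, but not without +/+ replicate 1 (log2 difference 1.21), 2 (1.06), 4 (1.35) or 5 (1.39), nor without S74N/+ replicate 1 (1.26) or 4 (1.35).

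Igkc followed the heavy chains closely in both genotypes. Igkc divided by the sum of the 4 heavy chain genes was 0.786 to 0.995 in +/+ and 0.864 to 0.965 in S74N/+ kidneys, although the heavy chain sum itself ran from 482 to 1286 and from 970 to 5453 normalized counts. The means of this ratio were 0.906 ± 0.0809 and 0.918 ± 0.0478 (SD, n = 5 each). Igkc and the summed heavy chain genes of the set therefore stood in nearly the same proportion in each kidney, whatever the class of the heavy chain. The lambda gene Iglc1, on chromosome 16, was at 0.476% to 3.85% of the summed Igkc and Iglc1 counts in +/+ and 0.755% to 4.49% in S74N/+ kidneys. The other lambda genes Iglc2 and Iglc3 were not analysed here. Its counts were 2.74 to 44.2 and 15.8 to 63.1, and it did not pass the test (log2 difference 1.25, SE 0.57, limma adjusted p = 0.3).

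**Figure D3:**
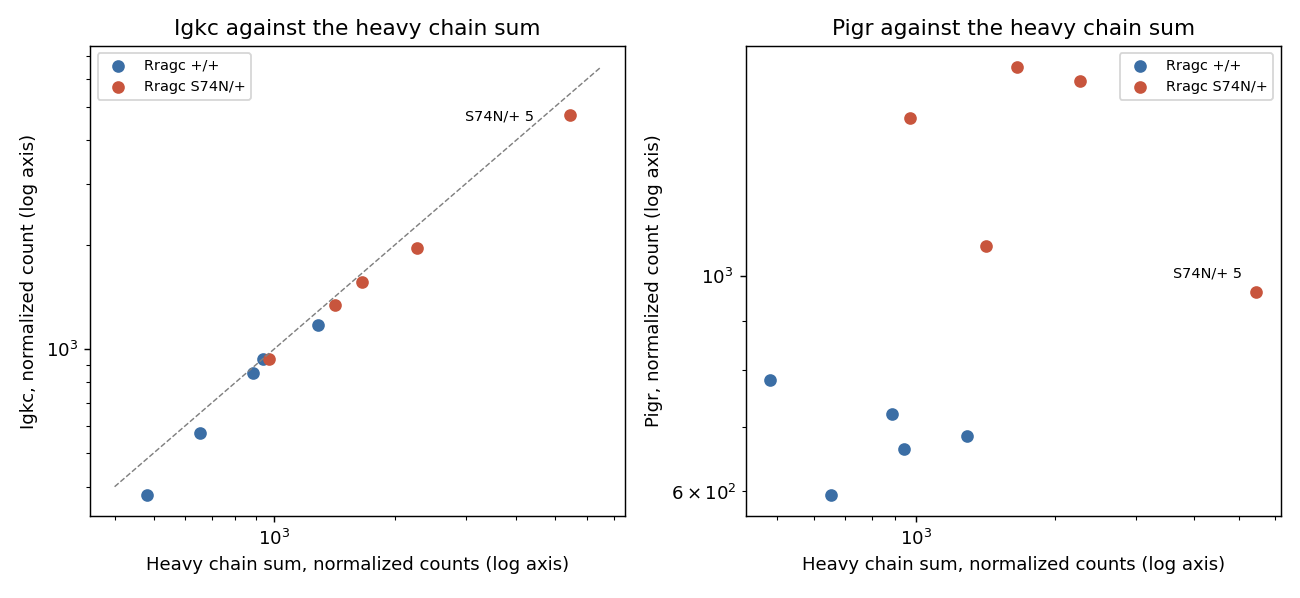
Igkc (left) and Pigr (right) against the summed heavy chain counts in each kidney, all in normalized counts on log axes, with a dashed line of equality on the left. Igkc lies close to the line in all 10 kidneys, while Pigr splits by genotype and S74N/+ replicate 5, with the highest heavy chain sum of 5453, has the lowest Pigr of the S74N/+ mice.

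Of 12 listed constant genes, the 6 with values, Iglc1 included, were summed as a measure of the immunoglobulin RNA of a kidney. The sum leaves out Ighg1, Ighg3, Ighd, Ighe, Iglc2 and Iglc3, which were not analysed here. Of every 1000000 reads they took 171, 124, 339, 246 and 266 in +/+ and 561, 281, 391, 465 and 1448 in S74N/+ kidneys. The groups overlapped, since S74N/+ replicate 2 was below +/+ replicate 3. On the log2 scale the S74N/+ mean was higher by 1.29, by 0.93 without S74N/+ replicate 5, and by 0.89 within the second run of library codes.

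Jchain was at 83.1, 40.0, 145, 110 and 138 normalized counts in +/+ and at 201.1, 138, 140, 179 and 513 in S74N/+ kidneys. S74N/+ replicates 2 and 3 lay within the +/+ range, and the log2 difference was 1.11 (SE 0.34). Per 100 heavy chain counts, Jchain was at 8.30 to 14.7 in +/+ and 8.87 to 14.3 in S74N/+ kidneys, almost the same range. Per 100 counts of Igha and Ighm, the chains that it joins, it was at 9.43 to 17.3 and at 13.2 to 28.4, again with overlap. Jchain thus kept pace with the heavy chain genes of the set considered jointly. Plasma cells of the IgG class also express it, although IgG is not joined by it.

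Pigr, the epithelial receptor, was at 595, 782, 684, 721 and 663 normalized counts in +/+ and at 1589, 1455, 1074, 1643 and 963 in S74N/+ kidneys. The groups did not overlap, the means were 689 ± 69.2 and 1345 ± 308 (SD, n = 5 each), and the log2 difference was 0.94 (SE 0.13). It was the member with the least spread among +/+ mice, 1.31 times from lowest to highest against 1.99 to 4.39 times for the others. Pigr did not follow the immunoglobulin genes from mouse to mouse. S74N/+ replicate 5 had the highest value of each of the other 6 members and the lowest Pigr of its genotype, and in +/+ mice replicate 2 had the highest Pigr and the lowest Ighg2c, Ighg2b, Igha, Igkc and Jchain.

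The start of Pigr is shown because several of the listed regulators, among them Usf2, Tfeb and Mitf, bind the sequence CACGTG. The 250 bases before its transcript start are at chr1:130826434-130826683 on the plus strand (RefSeq, GRCm38.p6), with the only match and its flanking bases in capitals.

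Pigr promoter: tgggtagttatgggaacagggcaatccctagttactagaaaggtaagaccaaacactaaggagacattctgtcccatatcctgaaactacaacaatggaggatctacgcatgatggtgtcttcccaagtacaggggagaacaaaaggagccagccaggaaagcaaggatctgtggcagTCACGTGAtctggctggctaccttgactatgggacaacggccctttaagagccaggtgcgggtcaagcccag

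CACGTG, which reads the same on both strands, was found once, at positions -71 to -66 from the transcript start. Of 32851 windows of the same length in the RefSeq table, 6.02% held CACGTG and 0.785% held TCACGTGA. The window before Jchain held neither, and these 2 genes were the only ones of the 7 members with an entry in the table. A match describes the letters only, and binding was not measured. Usf2 was at 812 to 1226 normalized counts in +/+ and 892 to 1171 in S74N/+ kidneys (log2 difference -0.08, limma adjusted p = 0.805), and Tfeb at 57.9 to 102 and 58.9 to 77.8 (log2 difference -0.07, limma adjusted p = 0.896). RNA levels do not measure the activity of these proteins. The paper reports less Tfeb and Tfe3 protein in kidney nuclei of fasted S74N/+ mice. Of 14 listed regulators of the receptor gene, limma called 0, edgeR 0 and DESeq2 0, with 1 (Mitf) at an unadjusted p under 0.05. Mitf, a relative of Tfeb, was at 216 to 289 and 179 to 236 normalized counts (log2 difference -0.34, SE 0.11, limma adjusted p = 0.114). Tfeb and Mitf are named here outside the naming rule, after their values were seen. The inhibitor gene Nfkbia, an early target of NF-kB, was at 507 to 699 and 512 to 715 normalized counts (log2 difference 0.04, limma adjusted p = 0.913).

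Over the whole set, all 7 genes had a positive log2 difference, with a median of 1.11 against 0.00046 over all genes tested. Of the 7, 4 were past the threshold (Ighg2c, Ighg2b, Igkc and Pigr), all higher in S74N/+ kidneys, where 1.67% of all genes were called in that direction. For 3 of them, Ighg2c, Ighg2b and Pigr, the groups did not overlap, as for 2.29% of all genes in that direction. Since this contrast chose the genes, neither count is a result about them. Without S74N/+ replicate 5 the log2 differences were 2.74 for Ighg2c, 2.14 for Ighg2b, 0.95 for Igkc, 0.78 for Jchain and 1.05 for Pigr, and the same 4 genes were past the threshold.

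Plasma cell and B cell genes were then set against each other within each mouse. On the plasma cell side stood Jchain and the 5 constant genes of the set. On the B cell side stood the 13 genes of a list of 30 B cell genes that had values, since Cd79a and Cd79b were not analysed here. The mean log2(normalized count + 1) of the plasma cell side exceeded that of the B cell side by 2.11, 1.18, 2.71, 2.18 and 2.21 in +/+ and by 3.61, 2.78, 3.28, 3.36 and 4.46 in S74N/+ kidneys. The lowest S74N/+ value, 2.78, was above the highest +/+ value, 2.71. The means were 2.08 ± 0.55 and 3.50 ± 0.61 on the log2 scale (SD, n = 5 each), a difference of 1.42, and it was 1.18 without S74N/+ replicate 5. The B cell side alone was at 4.74 to 4.89 in +/+ and 4.62 to 5.68 in S74N/+ kidneys, with overlap, and the plasma cell side, made of the chosen genes, carried the difference. With Jchain as the only plasma cell gene the difference was 0.89, and Jchain itself overlapped between genotypes. The other 13 tested genes of the plasma cell list were not on the plasma cell side, and their median log2 difference was -0.06.

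Among the B cell genes that are no members, 10 were tested and limma called 0, as did edgeR and DESeq2, with 2 at an unadjusted p under 0.05 (Cd55 and Cr2). Their median log2 difference was 0.27. Ebf1, a transcription factor needed for the B lineage that other cells express as well, was at 129 to 167 normalized counts in +/+ and 150 to 193 in S74N/+ kidneys (log2 difference 0.24, limma adjusted p = 0.332). Ralgps2 was at 205 to 259 and 192 to 244 (log2 difference -0.04, limma adjusted p = 0.92). Cr2, the complement receptor of mature B cells and follicular dendritic cells, was at 10.7 to 34.7 and 31.6 to 46.2 (log2 difference 0.92, SE 0.27, limma adjusted p = 0.0716), which missed the threshold. Cr2 and Cd55 are named here after their values were seen.

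Of the other plasma cell genes, 13 were tested, 0 were called higher and 1 lower by limma, and their median log2 difference was -0.06. The gene that fell was Fkbp11, which encodes a folding enzyme of the secretory pathway. It was at 71.2, 50.7, 64.6, 64.3 and 63.0 normalized counts in +/+ and at 20.9, 32.5, 24.2, 30.6 and 35.03 in S74N/+ kidneys (log2 difference -1.12, SE 0.18, limma adjusted p = 0.00105), without overlap. Xbp1, the regulator of the secretory apparatus, was at 262 to 425 and 223 to 380 normalized counts (log2 difference -0.12, limma adjusted p = 0.756), and Ell2, an elongation factor that plasma cells use for the secreted form of heavy chains, at 191.6 to 258 and 203 to 266 (log2 difference 0.12, limma adjusted p = 0.676). Most of these genes are also expressed by kidney epithelium. The summed level of the whole list, the member Jchain included, was 1314 to 1555 normalized counts in +/+ and 1314 to 1959 in S74N/+ kidneys. It was highest in S74N/+ replicate 5, where Jchain alone supplied 513, so that peak does not describe the other genes.

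Receptors that bind antibody other than Pigr did not pass. Of 8 tested Fc receptor and transport genes limma, edgeR and DESeq2 each called 0, with 0 at an unadjusted p under 0.05. Fcgrt, the neonatal Fc receptor that salvages IgG, was at 677 to 825 normalized counts in +/+ and 735 to 882 in S74N/+ kidneys (log2 difference 0.12, limma adjusted p = 0.565). Its partner B2m was at 2836 to 3919 and 2620 to 5793 (log2 difference 0.28, limma adjusted p = 0.457).

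Of 11 tested signals for survival and homing of B lineage cells, 1 rose and 0 fell. Ccl19, the ligand of Ccr7 that draws lymphocytes and dendritic cells into lymphoid tissue, was at 36.5, 25.8, 42.0, 27.9 and 44.8 normalized counts in +/+ and at 71.1, 55.7, 68.3, 112 and 99.3 in S74N/+ kidneys (log2 difference 1.16, SE 0.21, limma adjusted p = 0.0028). The groups did not overlap, and the order of the S74N/+ mice was not that of the immunoglobulin genes, as replicate 4 was highest. Cxcl12, a retention signal for plasma cells, was at 814 to 997 and 785 to 1025 (log2 difference 0.05, limma adjusted p = 0.849), and Ltbr at 814 to 920 and 758 to 951 (log2 difference -0.05, limma adjusted p = 0.837). Of 9 germinal centre and cell division genes limma, edgeR and DESeq2 called 0, with 1 (Tyms, named after its values were seen) at an unadjusted p under 0.05. Bcl6, the germinal centre regulator, ranged from 134 to 985 normalized counts in +/+ and from 136 to 770 in S74N/+ kidneys (log2 difference 0.16, limma adjusted p = 0.927). Stmn1 was at 282 to 397 and 285 to 369 (log2 difference -0.10, limma adjusted p = 0.742).

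Pigr was read beside a list of genes of mucosal epithelium, which holds defence genes and also keratins of simple epithelia. Of 12 such genes tested, 5 rose and 0 fell, with a median log2 difference of 0.51. Over all genes tested, 1.67% were called higher in S74N/+ kidneys. The list was chosen with earlier results of these data known, so this count is a description. Lcn2, an iron-sequestering protein released by stressed tubules, was at 10.04, 8.00, 7.94, 7.50 and 9.61 normalized counts in +/+ and at 27.5, 24.2, 24.2, 18.8 and 73.0 in S74N/+ kidneys (log2 difference 1.67, SE 0.32, limma adjusted p = 0.0041). Among +/+ mice it reached 10 in replicate 1 alone, so Lcn2 passed the filter on low values only through the S74N/+ kidneys, where it was high. Wfdc2, a secreted protease inhibitor family member, was at 1111 to 1429 and 1607 to 2046 (log2 difference 0.52, limma adjusted p = 0.00221). Krt8, a keratin of simple epithelia, was at 289 to 384 and 457.2 to 532 (log2 difference 0.51, limma adjusted p = 0.00341). Muc1, a membrane mucin, was at 52.5 to 77.9 and 92.0 to 177 (log2 difference 0.75, limma adjusted p = 0.0181). None of these 4 overlapped between genotypes, and they remained past the threshold without any single mouse, although within the second run of library codes Muc1 did not pass (limma adjusted p = 0.0613). C3, the central complement component, was at 66.5 to 88.9 and 89.3 to 488 (log2 difference 1.18, limma adjusted p = 0.0418). Its call was lost when any +/+ mouse or S74N/+ replicate 1 or 4 was left out, with log2 differences from 0.81 to 1.42 and adjusted p up to 0.109 over all single-mouse omissions. Krt7 was at 356 to 487 and 400.5 to 522 (log2 difference 0.18, limma adjusted p = 0.423).

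**Figure D4:**
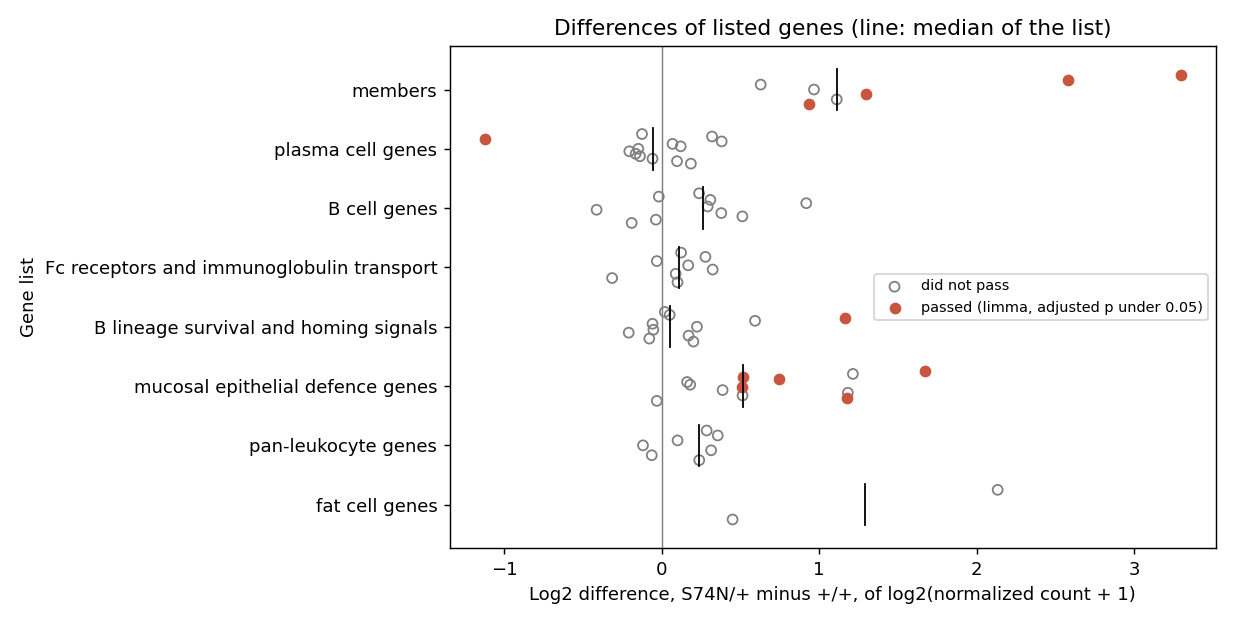
Log2 differences (S74N/+ minus +/+, of log2(normalized count + 1)) of the 7 members and of the tested genes of 7 lists, 1 point per gene, filled where limma called the gene and with a line at the median. The members have a median of 1.11, the plasma cell genes one of -0.06, the B cell genes one of 0.27 and the mucosal epithelial genes one of 0.51, and the only plasma cell gene that was called, Fkbp11, lies at -1.12.

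Markers of other cells were read beside these values. The pan-leukocyte genes summed to 426 to 468 normalized counts in +/+ and to 424 to 787 in S74N/+ kidneys, and the highest value was again S74N/+ replicate 5, the remaining S74N/+ mice being at most at 489. Of 7 tested limma, edgeR and DESeq2 called 0, with 0 at an unadjusted p under 0.05; Ptprc was at 80.4 to 115 and 92.0 to 174 (limma adjusted p = 0.433) and Lcp1 at 115 to 131 and 110 to 184 (limma adjusted p = 0.414). In T cell (4 tested), NK (1), neutrophil (3) and dendritic cell genes (9), limma, edgeR and DESeq2 also called 0, with 1, 0, 0 and 1 at an unadjusted p under 0.05. Trac was at 26.5 to 46.5 and 20.4 to 42.8, Lck at 10.95 to 15.0 and 6.31 to 31.1, Ccl5 at 11.3 to 30.1 and 13.0 to 55.5, S100a8 at 10.7 to 41.8 and 10.2 to 161, Cxcr2 at 30.6 to 47.0 and 19.9 to 40.0, Cd74 at 743 to 1380 and 868 to 1711 and H2-Ab1 at 696 to 936 and 563 to 1112 normalized counts. Among 13 macrophage and monocyte genes limma called 1, edgeR 1 and DESeq2 2, with 4 at an unadjusted p under 0.05. Ms4a7 fell by limma and DESeq2 but not by edgeR, from 11.9 to 18.1 in +/+ to 0.988 to 12.6 in S74N/+ kidneys (log2 difference -1.78, limma adjusted p = 0.0429). That call was lost without any +/+ mouse or S74N/+ replicate 1, 3 or 4, with log2 differences from -2.17 to -1.48 over single-mouse omissions. Among S74N/+ mice Ms4a7 reached 10 in replicate 5 alone. It passed the filter on low values only through the +/+ kidneys, where it was high. Ly6c2, a monocyte gene named after its values were seen, was called by edgeR and DESeq2 and missed the threshold in limma. It was at 3.56 to 10.7 in +/+ and 7.36 to 63.2 normalized counts in S74N/+ kidneys (log2 difference 1.58, SE 0.44, limma adjusted p = 0.0517), and was highest in S74N/+ replicate 5. Csf1r was at 821 to 1097 and 774 to 1161 and Lyz2 at 153 to 253 and 192 to 507 normalized counts.

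Red cell genes, a measure of blood in the tissue, summed to 23366 to 30722 normalized counts in +/+ and to 18782 to 25048 in S74N/+ kidneys. Of 5 tested, Hba-a1 fell (1962 to 3170 against 1149 to 2279, log2 difference -0.60, limma adjusted p = 0.0477), a call lost without +/+ replicate 1, 3, 4 or 5 or S74N/+ replicate 1, 2, 4 or 5 (log2 differences from -0.72 to -0.47 over single-mouse omissions), while Hbb-bs (12699 to 18001 and 9948 to 15579) and Hba-a2 (6441 to 8006 and 5537 to 7591) did not pass. S74N/+ replicate 5 had the lowest red cell sum of all mice, beside the highest pan-leukocyte sum, and the part of blood in the immunoglobulin values was not tested. Of the kidney cell genes, Umod, made by the thick ascending limb, fell from 20404 to 28356 in +/+ to 7760 to 13505 in S74N/+ kidneys (log2 difference -0.999, limma adjusted p = 0.000198), and Slc12a3, the salt transporter of the distal convoluted tubule, from 2445 to 2973 to 942 to 1283 (log2 difference -1.20, limma adjusted p = 2.6e-07). Slc34a1, of the proximal tubule, was at 26565 to 30222 and 27786 to 33360 (limma adjusted p = 0.754). In both Umod and Slc12a3, S74N/+ replicate 5 was the lowest of all mice.

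Fat cell genes stood apart in 2 libraries. Of 8 listed genes, Cfd and Fabp4 were in the table. For these limma called 0, with 0 at an unadjusted p under 0.05, while edgeR and DESeq2 each called 1 (Cfd). Their sum was 183 to 259 normalized counts in +/+ kidneys and 1411, 203, 94.6, 169 and 4375 in S74N/+ replicates 1 to 5. Cfd was at 3504 in replicate 5, 807 in replicate 1 and 0 to 52.3 in the other libraries, and Fabp4 at 871, 604 and 94.6 to 217. Replicates 5 and 1 were also the highest S74N/+ mice for Ighg2b, Igha, Igkc and Jchain. Without both, the log2 differences were 2.65 for Ighg2c, 1.84 for Ighg2b, 0.53 for Ighm, 0.15 for Igha, 0.78 for Igkc, 0.68 for Jchain and 0.996 for Pigr. The difference of the IgG part was then 25.6 percentage points, that of plasma cell minus B cell level 1.06, and that of the constant genes 0.78 on the log2 scale. Ighg2c, Ighg2b and Pigr were past the threshold without these mice and Igkc was not. Since this contrast chose the members, their passing here is a description and no test of them. Among the mucosal genes C3 lost its call without these mice (log2 difference 0.57, limma adjusted p = 0.106). The part of fat tissue in these values was not tested.

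To see which genes varied alike among mice of the same genotype, a measure the contrast did not use, each gene's log2(normalized count + 1) was centred within genotype and scaled by its SD, and pairs of genes were compared by the root mean square difference over the 10 mice, where 0 means identical profiles. The nearest pairs of members were Igkc with Jchain at 0.27 and Igkc with Igha at 0.30. Jchain was at 0.41 from Ighg2b, 0.44 from Ighg2c and 0.52 from Igha, and Igkc at 0.42 from Ighg2c and 0.43 from Ighg2b. The heavy chain genes were farther from each other, with 0.51 between Ighg2c and Ighg2b, 0.63 between Ighg2c and Igha and 0.67 between Ighg2b and Igha. Ighm was farther from Igkc, at 0.93, and Pigr was at 1.64 to 1.73 from every other member. Among 9130 other genes with a mean of at least 50, the 5 nearest to Igkc were Cavin2 (0.33), F5 (0.36), Rock1 (0.37), Tspan15 (0.41) and Lrrfip1 (0.41), all farther than Jchain and Igha. Nearest to Ighg2c were Lsm6 (0.25), Cavin2 (0.26), Tpm3 (0.39), Bc1 (0.44) and Dap (0.47), all nearer to it than Ighg2b or Igha, and to Pigr Nampt (0.31), Asb8 (0.38), Srsf2 (0.41), Nsmce2 (0.42) and Sh3bp4 (0.44). With 10 mice and so many genes to choose from, such nearness is a description, and 5 of these 15 genes were kept when the means of the 2 runs of library codes were also removed. In each gene named near Ighg2c or Igkc, S74N/+ replicate 5 was the highest of its genotype, as it was for both members. Rock1, for example, was at 1570 normalized counts there and at most at 1224 in S74N/+ replicates 1 to 4. How far the nearness rests on that kidney was not tested.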

How the data were processed

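The authors prepared QuantSeq 3′ FWD libraries, aligned the reads to GRCm39 with TopHat2 2.0.10, Bowtie 1.0.0 and SAMtools 0.1.19, and counted them by strand with HTSeq 0.6.1 on the GENCODE vM26 annotation. FastQC 0.11.7 checked the reads, and the submitters' notes name DESeq2. The deposited values are a signal, the reads of each gene scaled by a size factor per library. All 10 columns were matched to a mouse. The lowest gene mean was 5.64, and genes of lower expression were not analysed here. After multiplication by the size factor, 100% of values in each library were whole reads (tolerance 0.01 reads).

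Log2(value + 1) was tested with limma 3.58.1 in R 4.3.3 (eBayes with trend, two-sided, no covariate) for genes reaching 10 in 5 or more mice, and p-values were adjusted by Benjamini-Hochberg over all genes tested with a threshold of 0.05. On the recovered reads, edgeR 4.0.16 called 480 genes and DESeq2 1.42.0 called 648. With their main settings, limma, edgeR and DESeq2 were each run on simulated counts that gave all genes the same dispersion. The other fits were not simulated, nor was the wider spread of the immunoglobulin genes in S74N/+ kidneys. Since mice are the replicates, p-values measure the spread between these mice.

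The members and lists were chosen with earlier results of these data known. Genes named are the members, the immunoglobulin genes of the table, each listed gene past the threshold, the 2 most abundant genes of each list, the 5 nearest to Ighg2c, Igkc and Pigr in likeness, and Rragc. Cr2, Cd55, Tyms, Tfeb, Mitf and Ly6c2 were named outside this rule after their values were seen. No immunoglobulin variable gene was analysed here. The plasma cell minus B cell level was planned with Cd79a and Cd79b and computed with the listed B cell genes instead. Alternatives were other pseudocounts, filters, scalings, variance models and tools, the run of library codes as covariate, the second run of codes alone, and leaving out each mouse; leaving out S74N/+ replicates 1 and 5, and the alternatives of the IgG part, were added after seeing the data. Python 3.11.15, pandas 2.3.3, scipy 1.17.1, biopython and matplotlib 3.10.9 were used.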

Additional observations from a re-analysis of the deposited data

Results flagged for a closer look

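A kidney far from the others of its genotype was looked for in 28 groups of 5 values (7 members, Iglc1 and 6 derived quantities in each genotype), by whether the gap to the nearest mouse exceeded 0.71 of the range of the group. Chance flags about 1 in 20 groups if values are normally distributed. The counts were screened without a log transform, and the screen was not repeated on the log2 scale. All 5 values found came from S74N/+ replicate 5, and they are not independent of each other. They were Ighg2c at 1094 normalized counts against 328 in the next mouse, Ighm at 177 against 56.3, Igkc at 4734 against 1960, Jchain at 513 against 201.1, and the summed constant genes at 1448 of every 1000000 reads against 561. Its IgG part of 56.3%, its ratio of Igkc to heavy chains and its Pigr were not apart in this sense. The same kidney had the highest Cfd and Fabp4 and the highest pan-leukocyte sum, and the part of these in the values was not tested.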

How the results depend on the processing

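All 7 members kept a positive log2 difference in every alternative that could be run, and Ighg2c, Ighg2b and Pigr stayed past the threshold in all 23. Ighm, Igha and Jchain passed in none of theirs. Igkc lost its call in 12 of 23, and so 3 or 4 members were called throughout. Since the members were chosen on this contrast in these same kidneys, their calls here are a description and no test of them. Of all genes tested, 3.69% were called (487 genes), 2.21% (291) without the variance trend and 6.30% (832) with the run of library codes as covariate. Leaving out 1 mouse gave 2.24% to 3.53%, with 310 genes without +/+ replicate 4 and 295 without +/+ replicate 5. Listed genes called, 11, became 7 with a mean of at least 50, 7 without the trend and 7 within the second run of library codes, and 8 to 12 when 1 mouse was left out. Leaving out 1 mouse gave 0.93 to 1.52 for the log2 difference of the constant genes, 26.3 to 34.1 percentage points for the IgG part and 1.18 to 1.60 for plasma cell minus B cell level. Of the 15 nearest genes in likeness, 5 were shared after removal of run means and 13 with a pseudocount of 5. Ighm had no value with a mean of at least 50. A choice between Cd79a with Cd79b and the list, and Mzb1 beside Jchain, could not be run. No paired analysis was possible because replicate numbers were given in accession order and pair no mice. Among the immunoglobulin genes, depth limits Ighg2c and Iglc1 in +/+ kidneys most, where single libraries held as few as 9 and 3 reads.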
